A study of Mus musculus with 120 samples.

Results

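The medulla oblongata of 26-week-old mice was compared between 175Q and WT animals, 8 of the 120 libraries of a brain RNA-seq series on spinocerebellar ataxia type 1 (SCA1). The members were chosen by their labels alone: 4 medulla libraries of WT mice and 4 of 175Q mice, each from 2 females and 2 males on the C57BL/6J strain. WT mice are Atxn1 2Q/2Q. The 175Q mice are Atxn1 175Q/2Q, that is, they carry 1 knock-in Atxn1 allele with a lengthened CAG repeat, expressed from the gene's own locus in every cell that uses it, and 1 normal allele. The statistical fit also holds the 4 medulla libraries of 175QK772T mice, the third genotype, which add to its estimate of spread and enter no comparison. The effect was set beside that in cerebellum, cortex, hippocampus and striatum of the 26-week mice and in the brainstem of other mice, aged 10 weeks. In that brainstem set WT and 175Q each have 2 females and 2 males, while the 175QK772T mice in its fit are mostly female. The sample descriptions at this age name the line by a shorter repeat than the 175Q of the genotype field, so the repeat length of these animals is uncertain. RNA was taken from whole tissue, so fewer cells of a type and less RNA per cell cannot be told apart.

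The medulla holds motor, respiratory, autonomic and sensory nuclei, and the inferior olive, whose climbing fibres excite the Purkinje cells of the cerebellum. Ataxin-1, the Atxn1 product, is a nuclear protein that binds the transcriptional repressor Capicua (Cic). In SCA1, cerebellar and brainstem neurons degenerate, and loss of medullary function contributes to swallowing and breathing failure in patients.

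Libraries held 42064636 to 52319604 counts in WT and 33265223 to 54717643 in 175Q, with 5.2 to 5.94% of them on mitochondrial genes. Regional identity followed the labels: Slc6a5, the glycine transporter of inhibitory hindbrain neurons, averaged 546.8 CPM (counts scaled to library size) in the WT medulla, 47.87 in cerebellum and 0.2027 in hippocampus. Choroid plexus was uneven. Ttr, the transthyretin gene that marks choroid plexus epithelium, was at 2599, 3512, 973.6 and 2573 CPM across WT replicates 1 to 4, and at 2601, 275.9, 43.09 and 177.3 CPM in 175Q replicates 1 to 4. One 175Q library was thus as high as WT and the other 3 were below every WT library, and the groups did not differ in Ttr by a two-sided exact permutation test (p = 0.114; the smallest possible is 0.0286). WT replicate 4 held the most cerebellar RNA, with 17.2 CPM of the granule cell receptor gene Gabra6 against 1.31 to 2.86 in the other WT libraries. Among the other regions used for comparison, the library labelled WT cortex replicate 1 went against its label: it held 404 CPM of Slc6a5, at most 0.264 in the other 3 WT cortex libraries.

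Atxn1 (GRCm38 chr13:45549755-45965008, minus strand) was measured at 41.02, 40.4, 42.7 and 45.6 CPM in WT and 60.5, 54.1, 54.7 and 51 CPM in 175Q. All 4 mutant libraries were above all 4 WT libraries, with a log2 fold change of 0.38 ± 0.06 (SE; edgeR quasi-likelihood test, adjusted p = 0.00073). Reads of the expanded and the normal allele were counted together. Of 176 genes tested within 10 Mb of Atxn1, 18.2% changed, close to the share over all genes.

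Across 19787 tested genes, 3663 (18.5%) changed at a Benjamini-Hochberg adjusted p below 0.05, of which 1643 (8.3%) were higher and 2020 (10.2%) lower in 175Q; without 175Q replicate 4 the count was 2323. The median log2 fold change over all tested genes was -0.00054. Most changes were small: the median size among called genes was 0.32 on the log2 scale, while 91 rises and 211 falls reached a log2 change of 1. In 3198 of the 3663 called genes the 4 values of each group did not overlap. A call itself favours such separation, and the share over all tested genes was not counted. Below, values after a gene are its log2 fold change of 175Q against WT with its SE, from the edgeR fit with a term for sex (4 mice in each group), and a gene is said to rise or fall only where its adjusted p passed 0.05. Medulla counts of a gene list stand against the 8.3% of all genes that rose and the 10.2% that fell.

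**Figure D1:**
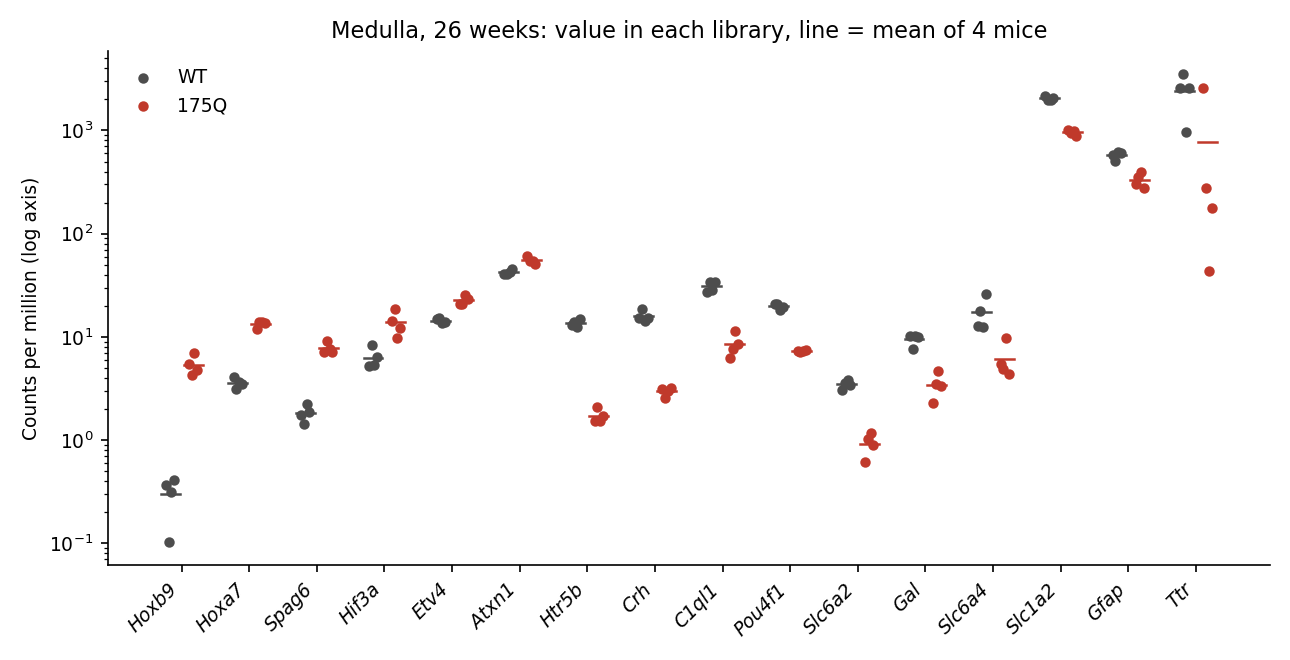
Level of 16 genes in each medulla library, in CPM on a log axis, with WT in grey, 175Q in red and lines at the mean of 4 mice. Hoxb9 to Atxn1 are higher and Htr5b to Gfap lower in all 4 175Q libraries, and Ttr of 1 175Q library lies among those of WT.

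Genes of the inferior olive fell. Of 12 olive and climbing fibre genes, 9 fell and none rose (10.2% of all genes fell), with a median log2 fold change of -0.79, and the count was 9 with each library left out in turn. Htr5b, a serotonin receptor gene that in the mouse hindbrain is known from the inferior olive (chr1:121509842-121528465, minus strand), was at 13.1, 13.9, 12.5 and 14.8 CPM in WT and 1.53, 2.096, 1.54 and 1.73 CPM in 175Q. Its fall, 7.87-fold, was the largest of the genes named by size at a mean of at least 1 CPM (-2.98 ± 0.15, adjusted p = 2.6e-08), and its reads may be shared with the overlapping gene Gm8217. Crh, which encodes the corticotropin-releasing hormone that climbing fibres also carry, was at 15.3, 18.6, 14.4 and 15.1 CPM in WT and 3.14, 2.57, 3.02 and 3.18 CPM in 175Q (-2.41 ± 0.16, adjusted p = 1.9e-07). Neither gene's groups came near to overlapping.

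C1ql1, the secreted complement-like protein by which climbing fibres organise their synapses on Purkinje cells, was at 27.3, 33.8, 28.6 and 34.3 CPM in WT and 6.30, 7.69, 11.4 and 8.51 CPM in 175Q (-1.88 ± 0.15, adjusted p = 1.5e-06). It overlaps Gm26668. Pou4f1, a POU-domain transcription factor of olivary and some sensory neurons, was at 20.7, 20.7, 18.3 and 19.6 CPM in WT and 7.28, 7.12, 7.33 and 7.47 CPM in 175Q (-1.44 ± 0.11, adjusted p = 1.3e-06). Its 4 mutant values were nearly equal. Igfbp5, an insulin-like growth factor binding protein, ranged from 94.3 to 156 CPM in WT and from 37.6 to 54.2 CPM in 175Q (-1.45 ± 0.14, adjusted p = 7.9e-06).

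Smaller falls were seen in Calb1, a calcium buffer (-0.89 ± 0.12), the transcription factor gene Foxp2 (-0.70 ± 0.13), the T-type calcium channel gene Cacna1g (-0.38 ± 0.09) and Gjd2, which encodes the connexin of the gap junctions between olivary neurons (-0.29 ± 0.07). The groups did not overlap for any of these 4. Among the 3 members that did not pass were Slc17a6, the vesicular glutamate transporter of most medullary excitatory neurons (-0.04 ± 0.04), and Crhbp (-0.05 ± 0.19). The summed level of the list was 739.7, 770.9, 726.2 and 831.6 CPM in WT and 520.6, 557.1, 558.7 and 548.9 CPM in 175Q. The 175Q library with as much choroid plexus RNA as WT had the lowest sum. In a fit with the choroid plexus level as a covariate 9 of 12 genes fell. That level was below every WT library in the other 3 175Q libraries, and its part in the olive changes was not tested.

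The nearest sample type at the younger age is the brainstem of 10-week-old mice. There 2.93% of genes changed, 1.87% downwards, and Crh and Igfbp5 were the 2 olive genes that fell, with a median of -0.08 over the 12. Htr5b averaged 4.963 CPM in WT and 3.368 CPM in 175Q brainstem (-0.56 ± 0.47), C1ql1 21.99 and 21.89 CPM (-0.01 ± 0.26) and Pou4f1 9.816 and 10.43 CPM (0.08 ± 0.30). Their 10-week spread was wide: C1ql1 ranged from 12.72 to 31.29 CPM in the WT brainstem. The difference of the 175Q effect between the 2 sets was itself tested, and the effect was lower in the 26-week medulla for 7 of 12 genes (0.901% of all genes). C1ql1 had the clearest difference of these (-1.87 ± 0.34, adjusted p = 0.009). For Htr5b it was -2.41 ± 0.56 (adjusted p = 0.04), for Pou4f1 -1.52 ± 0.35 (adjusted p = 0.039) and for Crh -1.02 ± 0.24 (adjusted p = 0.041). The count depended on single libraries. It was 1 without WT medulla replicate 4, WT brainstem replicate 2, 175Q medulla replicate 1 or 175Q brainstem replicate 3. It was 2 without WT medulla replicate 2, WT brainstem replicate 1, 175Q medulla replicate 4 or 175Q brainstem replicate 2, 3 without WT brainstem replicate 3, 175Q medulla replicate 2 or 175Q brainstem replicate 4, and 4 without 175Q medulla replicate 3 or 175Q brainstem replicate 1. Age, the tissue named, the mice and, per the labels, the batch of library preparation and sequencing all differ between these sets, and their parts cannot be told apart. In cortex, hippocampus and striatum of the 26-week mice, 9, 7 and 7 of the 12 genes also fell (medians -0.74, -0.63 and -0.84). None rose in cortex, 1 in hippocampus and 2 in striatum, and 16.2, 20.4 and 22.6% of all genes fell there. The cortex counts and median include the library labelled WT cortex replicate 1, which went against its label, and were not computed without it. Against the mean of cortex, hippocampus and striatum, the effect in the medulla was higher for 2 of the 12 and lower for 1 (5.96 and 3.36% of all genes). Without the library labelled WT cortex replicate 1 these were 2 and 3.

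**Figure D2:**
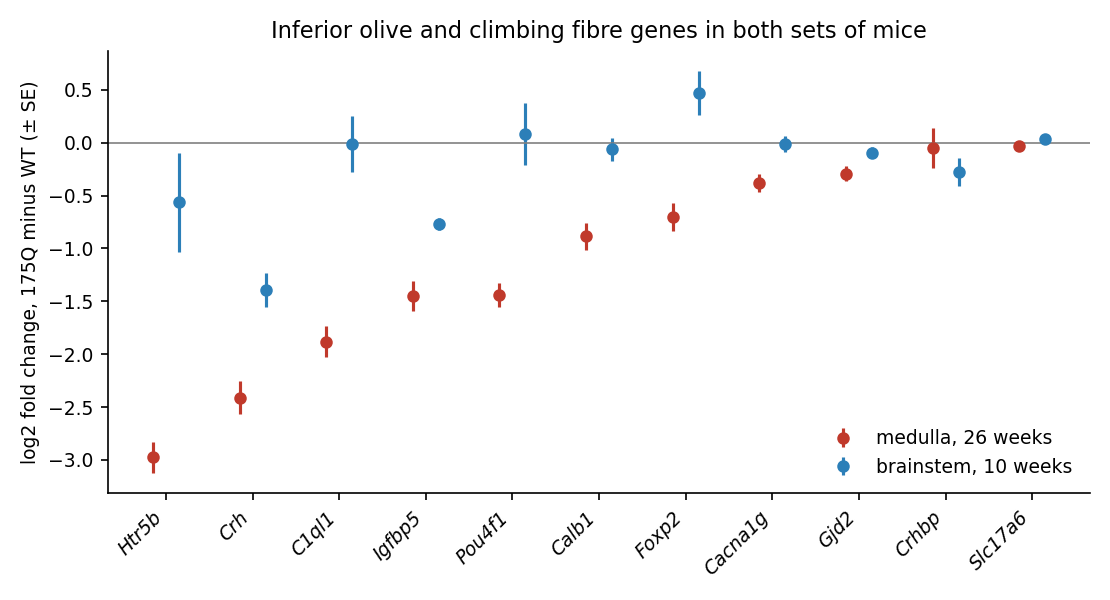
Log2 fold change of 175Q against WT, with its SE, for 11 inferior olive and climbing fibre genes in the medulla at 26 weeks (red) and the brainstem at 10 weeks (blue). Red points of Htr5b, Crh, C1ql1, Igfbp5 and Pou4f1 lie between -2.98 and -1.44; the blue points of C1ql1 and Pou4f1 lie near 0.

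Transmitter genes of the monoamine cell groups were lower too. Of 9 tested noradrenaline and adrenaline neuron genes 5 fell and none rose (median -0.64). Slc6a2, the noradrenaline transporter, was at 3.05, 3.58, 3.84 and 3.45 CPM in WT and 0.611, 1.02, 1.18 and 0.893 CPM in 175Q (-1.91 ± 0.17, adjusted p = 4.1e-06). Dbh, the enzyme that makes noradrenaline from dopamine, was at 8.47, 11.4, 11.9 and 9.79 CPM in WT and 4.18, 8.31, 5.75 and 4.28 CPM in 175Q, where 1 mutant library came close to the lowest WT library (-0.88 ± 0.19). Th, the first enzyme of catecholamine synthesis (-0.81 ± 0.14), the vesicular monoamine transporter gene Slc18a2 (-0.64 ± 0.16) and the neuropeptide gene Gal (-1.46 ± 0.22) also fell.

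In the 10-week brainstem, 7 of 10 noradrenergic genes fell (median -0.9998), and Slc6a2 averaged 34.23 CPM in WT and 4.443 CPM in 175Q. None of the 10 differed in effect between the sets. The WT level of Slc6a2 was thus several times higher in that tissue than in the medulla.

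Among 10 serotonin neuron genes 4 fell and none rose (median -0.53). These were the transporter gene Slc6a4 (-1.45 ± 0.28), Tph2, the enzyme that begins neuronal serotonin synthesis (-0.86 ± 0.20), the receptor gene Htr1a (-0.79 ± 0.06) and Slc18a2, which belongs to both lists. Slc6a4 was at 12.7, 17.9, 12.5 and 26.0 CPM in WT and 5.40, 4.91, 9.77 and 4.34 CPM in 175Q. Htr1a was the tightest of them, at 24.03 to 28.5 CPM in WT and 13.7 to 16.5 CPM in 175Q. Fev, which specifies serotonin neurons, did not pass (-0.82 ± 0.28, adjusted p = 0.055).

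Of 12 genes of the area postrema and the nucleus of the solitary tract, which read visceral signals, 4 fell and 1 rose (median -0.53). Over all genes 10.2% fell and 8.3% rose, and the count of rises is close to that share. Gcg, the precursor of GLP-1, was at 3.36, 3.42, 4.12 and 3.95 CPM in WT and 0.754, 2.52, 1.05 and 1.28 CPM in 175Q (-1.43 ± 0.29). Prlh, the prolactin-releasing peptide gene, fell 9.2-fold from 0.885 to 1.75 CPM in WT to 0.0893 to 0.191 CPM in 175Q (-3.20 ± 0.41, adjusted p = 9.7e-05). The receptor genes Glp1r (-0.51 ± 0.09) and Calcr (-0.56 ± 0.18) fell, and Gipr rose (0.42 ± 0.12); Calcr and Gipr each lost their call in 7 of 16 alternative settings.

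Neuropeptide precursor genes fell in 10 of 19 cases and rose in 1 (median -0.35), where 10.2% of all genes fell and 8.3% rose. Cck, cholecystokinin, was at 19.7, 16.6, 23.8 and 14.7 CPM in WT and 5.75, 8.10, 6.86 and 7.29 CPM in 175Q (-1.40 ± 0.14, adjusted p = 7.5e-06). Tac2, the neurokinin B gene (-1.69 ± 0.20), Nmu (-1.10 ± 0.23), Cartpt (-0.96 ± 0.15), Trh (-0.88 ± 0.15), Sst (-0.58 ± 0.11), Npy (-0.54 ± 0.13) and Penk (-0.43 ± 0.07) fell as well. Uts2, urotensin II, a peptide of brainstem and spinal motor neurons, was the exception, at 1.24, 1.09, 1.07 and 1.03 CPM in WT and 3.36, 1.88, 4.56 and 2.38 CPM in 175Q (1.47 ± 0.27, adjusted p = 0.0019).

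Cholinergic and motor neuron genes had 1 rise and 2 falls among 12 (median -0.11), close to the shares over all genes (8.3% higher, 10.2% lower), and 1 fall with DESeq2 or without WT replicate 1, WT replicate 4, 175Q replicate 1 or 175Q replicate 4. Calca, which encodes calcitonin gene-related peptide and is made by motor neurons, was at 15.4, 14.7, 16.9 and 16.5 CPM in WT and 47.5, 21.5, 38.5 and 25.9 CPM in 175Q (1.08 ± 0.21, adjusted p = 0.0029). Chat, the acetylcholine-synthesising enzyme of the same neurons, did not pass (-0.11 ± 0.17), while Chodl (-0.67 ± 0.21; call lost in 6 of 16 settings) and Ecel1 (-0.41 ± 0.10) fell. In the brainstem at 10 weeks Calca stood at -0.25 ± 0.10, and its effect differed between the sets (1.32 ± 0.26, adjusted p = 0.014).

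Of 12 glycine and GABA neuron genes 3 fell (median -0.09), where 10.2% of all genes fell. Slc6a5 was at 523.6 to 577.2 CPM in WT and 478.7 to 546.9 CPM in 175Q and did not pass (-0.08 ± 0.06), and Gad1 (-0.10 ± 0.04) and the glycine receptor gene Glra1 (-0.19 ± 0.21) did not pass either. In a list of 12 glutamate neuron genes 6 fell and 1 rose (median -0.14): the AMPA receptor subunit gene Gria1 was at 215.8 to 236.9 CPM in WT and 152.0 to 168.3 CPM in 175Q (-0.50 ± 0.04), Grin2a fell by 0.40 ± 0.06 on the log2 scale, and Grin1 rose (0.15 ± 0.05), a call lost in 10 of 16 settings.

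Potassium channel genes fell in 7 of 16 cases and rose in none (median -0.16). They included Kcnc1, a fast-spiking delayed rectifier (-0.43 ± 0.05), Kcna6 (-0.38 ± 0.04) and the weakly expressed Kcnh3 (-1.99 ± 0.31). Kcng1, a silent subunit that modifies Kv2 channels and belongs to no list, was at 19.7, 21.96, 20.1 and 21.2 CPM in WT and 5.56, 6.00, 6.89 and 7.26 CPM in 175Q (-1.69 ± 0.10, adjusted p = 7e-08). Sodium and calcium channel genes had 1 rise, Cacna1b (0.25 ± 0.07; call lost in 6 of 16 settings), and 3 falls, Scn4b (-0.34 ± 0.05), Cacna1i (-0.50 ± 0.08) and Scn3a (-0.32 ± 0.07), among 16 (median -0.00075). Over all genes 8.3% rose and 10.2% fell, and the count of rises is close to that share. Axon cytoskeleton and transport genes fell in 5 of 14 cases (median -0.13), with Nefl, the light neurofilament, at 1257 to 1360 CPM in WT and 900.9 to 1030 CPM in 175Q (-0.46 ± 0.06) and the motor gene Kif5a at -0.35 ± 0.07. Synaptic vesicle genes fell in 4 of 16 (median -0.07).

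Hox genes, which give hindbrain and spinal segments their position along the body axis, changed at particular members. Of 23 Hox genes tested, 4 rose and 3 fell, where 8.3% of all genes rose and 10.2% fell, so the count of falls is close to the share over all genes. The Hoxa cluster had 1 rise among 7 (median -0.06), the Hoxb cluster 1 rise and 2 falls among 8 (median -0.13), the Hoxc cluster none among 3 (median -0.04) and the Hoxd cluster 2 rises and 1 fall among 5 (median -0.05). The upstream sequences of 3 of these genes and of Spag6 are shown to give the context of the changes. Each is the 250 bases before the RefSeq gene start on the gene's strand (GRCm38.p6), 5′ to 3′, with CG dinucleotides, the sites of DNA methylation, in capitals. Hoxa7 lies at chr6:52218574-52218823, minus strand, Hoxd9 at chr2:74697513-74697762, Hoxd1 at chr2:74762730-74762979 and Spag6 at chr2:18698772-18699021, the last 3 on the plus strand.
Hoxa7: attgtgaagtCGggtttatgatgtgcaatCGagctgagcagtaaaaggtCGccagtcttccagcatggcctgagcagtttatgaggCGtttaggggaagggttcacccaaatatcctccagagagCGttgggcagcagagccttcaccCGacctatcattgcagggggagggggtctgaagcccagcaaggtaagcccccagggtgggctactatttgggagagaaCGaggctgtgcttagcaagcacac
Hoxd9: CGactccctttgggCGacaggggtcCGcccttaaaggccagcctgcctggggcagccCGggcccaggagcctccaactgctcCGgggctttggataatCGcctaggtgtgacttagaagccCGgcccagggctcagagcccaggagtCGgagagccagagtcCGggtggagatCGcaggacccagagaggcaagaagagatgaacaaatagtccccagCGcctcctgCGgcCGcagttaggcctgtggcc
Hoxd1: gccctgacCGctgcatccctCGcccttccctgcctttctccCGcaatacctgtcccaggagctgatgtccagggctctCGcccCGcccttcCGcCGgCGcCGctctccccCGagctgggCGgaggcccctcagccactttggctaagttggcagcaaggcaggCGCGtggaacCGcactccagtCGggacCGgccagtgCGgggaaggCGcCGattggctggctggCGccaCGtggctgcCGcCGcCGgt
Spag6: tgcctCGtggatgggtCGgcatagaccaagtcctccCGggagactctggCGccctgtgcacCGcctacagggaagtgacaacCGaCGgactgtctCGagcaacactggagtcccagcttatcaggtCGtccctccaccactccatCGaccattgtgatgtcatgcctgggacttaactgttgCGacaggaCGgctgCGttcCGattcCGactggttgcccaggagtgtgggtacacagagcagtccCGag
Hoxa7 holds 7 CG in this window, Hoxd9 13, Spag6 16 and Hoxd1 24. The median over 13183 tested genes with a RefSeq promoter was 14, and it was 16 for genes that rose and 13 for genes that fell. Hoxd1, which fell, has the most CG of the 4 shown, and 20.4% of all promoters have at least as many. The letters TGACGTCA (cyclic AMP response element), ATGCAAAT (octamer) and TATAAA, searched on both strands over 300 bases that include the first 50 after the start, occur in none of the 4 windows and in 2.99, 1.39 and 7.79% of all promoters.

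Hoxb9 (chr11:96271457-96276595) showed the largest rise of the tested genes named in the medulla, from 0.369, 0.103, 0.317 and 0.407 CPM in WT to 5.42, 4.29, 7.001 and 4.76 CPM in 175Q, 18.1-fold (4.18 ± 0.36, adjusted p = 2.6e-06). It rested on 57 reads in the 4 WT libraries together and 993 in 175Q. Hoxa7 was at 4.06, 3.13, 3.62 and 3.52 CPM in WT and 11.9, 13.8, 13.97 and 13.5 CPM in 175Q (1.90 ± 0.10, adjusted p = 3.1e-08), and its reads may be shared with the antisense gene Hoxaas3. Both groups were tight and far apart.

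Hoxd9 went from 15 reads in WT to 225 in 175Q, at 0.0206 to 0.155 CPM and 0.795 to 1.92 CPM (3.97 ± 0.35, adjusted p = 3.7e-06). Hoxd8 was at 2.35, 1.52, 1.72 and 1.63 CPM in WT and 3.06, 2.48, 4.90 and 3.39 CPM in 175Q (0.94 ± 0.24, adjusted p = 0.016), and the call was lost without 175Q replicate 3 (adjusted p = 0.062). All 4 rises were at paralogues 7 to 9, whose expression normally begins in the caudal hindbrain or spinal cord. Hoxb7 and Hoxb8, of the same paralogue groups, did not pass; Hoxb8 was at -0.27 ± 0.14.

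Some posterior genes were too low to be tested. Hoxa9 had 1 read in WT and 21 in 175Q, and Hoxc8 3 and 14. Hoxd10 had 0 reads of 195179918 in WT, which allows up to 0.0154 CPM by a floor of 3 counts over the group. In 175Q it had 39 reads or 0.219 CPM, 14.3-fold above that limit. The limit covers counting error in WT only, and the counting error of the 39 reads is not included.

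Hoxd1, at the anterior end of its cluster, went the other way. It was at 2.21, 2.26, 2.26 and 2.25 CPM in WT and 0.999, 0.881, 1.05 and 0.893 CPM in 175Q (-1.22 ± 0.16, adjusted p = 0.0001). Hoxb4 (-0.28 ± 0.09) and Hoxb5 (-0.29 ± 0.09) fell slightly, with overlapping groups, and lost their calls in 9 or 10 of 16 alternative settings. Hoxa5, a marker of the caudal hindbrain, averaged 49.93 CPM in WT and 42.96 CPM in 175Q and did not pass (-0.21 ± 0.07, adjusted p = 0.067). Among the markers of other cells, the summed choroid plexus level moved with genotype in 3 of 4 mutant libraries, and its part in the Hox changes was not tested; in 175Q replicate 1, whose choroid plexus level equals that of WT, Hoxb9 was at 5.42 CPM and Hoxa7 at 11.9 CPM.

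**Figure D3:**
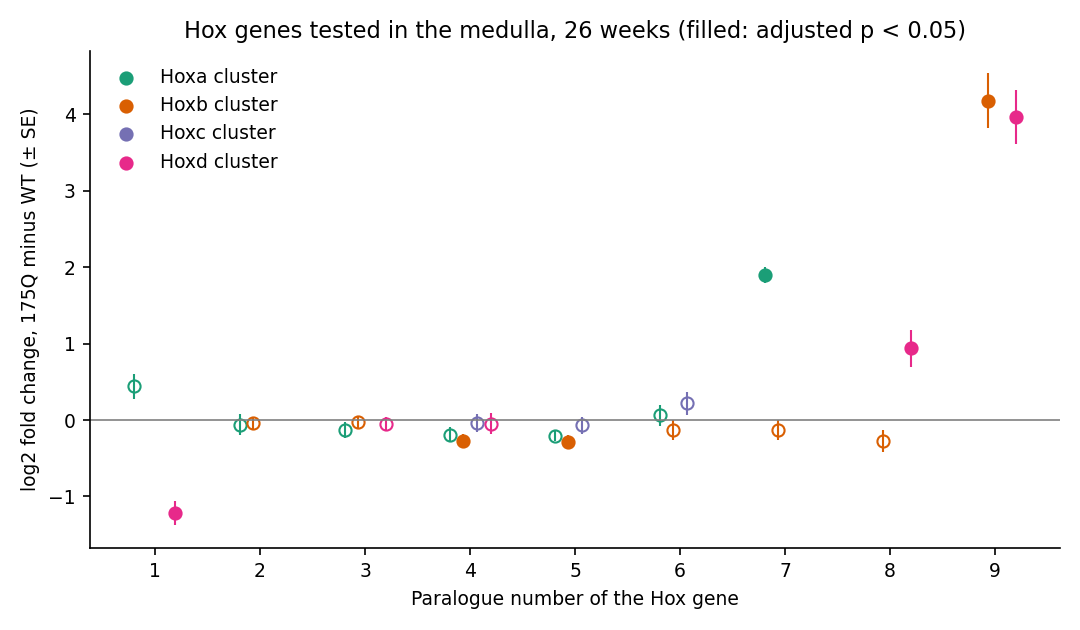
Log2 fold change of 175Q against WT, with its SE, for the 23 Hox genes tested in the medulla, by paralogue number, with a colour for each cluster and filled points at adjusted p below 0.05. Hoxa7, Hoxd8, Hoxb9 and Hoxd9 lie above 0 at the right, and Hoxd1 at -1.22 lies below 0 at the left.

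No Hox gene passed in the 10-week brainstem, where Hoxb9 averaged 0.1419 CPM in WT and 0.768 CPM in 175Q (2.43 ± 0.70, adjusted p = 0.082), and none differed in effect between the sets. In hippocampus and striatum of the same 26-week mice these genes were at or near 0 in WT, and those that pass a count filter there do so through the mutant libraries. In hippocampus Hoxb9 averaged 0 CPM in WT and 11.52 CPM in 175Q, and Hoxa7 0.06257 and 10.18 CPM. The striatum had 2.886 CPM of Hoxb9 and 2.109 CPM of Hoxa7 in 175Q. The mutant cerebellum had 0.006289 CPM of Hoxb9 and 0.1396 CPM of Hoxa7. The mutant medulla, at 5.37 and 13.3 CPM, was thus within the range of these tissues or above it for Hoxb9 and Hoxa7, from a WT level that was already above 0.

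Spag6, a protein of the central pair of motile cilia (chr2:18694032-18750413), rose next to Hoxb9 among genes of at least 1 CPM, from 1.73, 1.42, 2.26 and 1.87 CPM in WT to 7.17, 9.05, 7.67 and 7.17 CPM in 175Q (2.102 ± 0.14, adjusted p = 1.6e-07). Its near copy Spag6l did not pass (-0.56 ± 0.23, adjusted p = 0.1), and reads that fit both copies are uncertain. Of 17 motile cilium genes Spag6 was the 1 that rose, and Dnah5 (-0.68 ± 0.14), Dnah11 (-1.25 ± 0.31) and Hydin (-0.61 ± 0.15) fell (median -0.29). Over all genes 8.3% rose and 10.2% fell. Spag6 also had the largest positive difference from the 10-week brainstem among the genes named there (1.90 ± 0.19, adjusted p = 1.2e-05), where it averaged 0.8991 CPM in WT and 1.025 CPM in 175Q.

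The remaining large rises were of weakly or moderately expressed genes. Ppp1r1c, a protein phosphatase 1 inhibitor (1.54 ± 0.20), Acy3, an aminoacylase (1.24 ± 0.13), Tmc3 (1.15 ± 0.11), the Notch ligand gene Dll3 (1.10 ± 0.16), Nanos2 (1.06 ± 0.18) and the centriole gene Stil (1.04 ± 0.19) all had groups that did not overlap. This was a condition for naming them. Acy3 was at 4.03 to 5.65 CPM in WT and 9.37 to 12.2 CPM in 175Q. The largest gains in CPM were in the noncoding RNA gene Snhg11, from 2438 to 2821 CPM in WT to 2969 to 3300 CPM in 175Q (0.29 ± 0.06), and in Peg3, an imprinted zinc finger gene (0.44 ± 0.07), with Apod, an apolipoprotein, at 0.51 ± 0.06.

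ATXN1 and Capicua complex and target genes rose in 4 of 16 cases and fell in 1 (median 0.10), where 8.3% of all genes rose and 10.2% fell. Etv4, an ETS factor and a known Capicua target (chr11:101769742-101785371, minus strand), was at 14.8, 15.1, 13.7 and 13.96 CPM in WT and 20.8, 20.8, 25.4 and 23.5 CPM in 175Q (0.66 ± 0.08, adjusted p = 5.1e-05). All mutant values were above all WT values. Etv5, another ETS target, rose less (0.20 ± 0.05), as did Cic itself (0.21 ± 0.06), Atxn1 was the fourth, and Spred1 fell (-0.16 ± 0.05). The count of rises was 2 without WT replicate 4, Cic lost its call in 7 of 16 settings, and Spred1 in 6.

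In the forebrain the same genes mostly fell. In the 26-week cortex, hippocampus and striatum, 10, 11 and 10 of the 16 fell and 1 rose in each. Of all genes, 31.6, 40.8 and 45.4% changed there, 16.2, 20.4 and 22.6% downwards and 15.3, 20.3 and 22.7% upwards. Etv4 stood at -1.02, -1.14 and -0.80 there, and Dusp6, a MAP kinase phosphatase, at -1.33, -0.998 and -1.39. The cortex counts and values include the library labelled WT cortex replicate 1 and were not computed without it. In the medulla Dusp6 did not pass (0.01 ± 0.07). The difference between the medulla and the mean of the 3 forebrain regions was tested within mice over 22458 genes, of which 5.96% were higher and 3.36% lower in the medulla, and 11 of the 16 genes were higher. Etv4 differed by 1.66 ± 0.13 (adjusted p = 3.3e-11), the smallest adjusted p of any named gene in that comparison. Without the library labelled WT cortex replicate 1 the count was 13. In the 10-week brainstem 5 of the 16 rose and none fell, Etv4 by 0.44 ± 0.10, and none of the 16 differed from the medulla. Both forms of the Capicua octamer, TGAATGAA and TGAATGGA, were searched on both strands of 300 bases around each RefSeq start. They occur in 1.14 and 0.569% of promoters of genes that rose and in 0.85 and 0.759% of all promoters. No match was found for Etv5, Etv1, Cic or Dusp6, where a gene without a RefSeq promoter would also give none. The promoter of Etv4 was not looked up by name.

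Glucocorticoid-responsive genes rose in 3 of 16 cases and fell in 2 (median 0.09). Over all genes 8.3% rose and 10.2% fell, and the count of falls is close to that share. Hif3a, a hypoxia-inducible factor subunit, was at 5.17, 8.36, 5.33 and 6.32 CPM in WT and 14.4, 18.8, 9.71 and 12.2 CPM in 175Q (1.12 ± 0.12, adjusted p = 1.8e-05). Plin4, a lipid droplet protein (1.10 ± 0.26), and the kinase gene Sgk1 (0.77 ± 0.23; call lost in 7 of 16 settings) rose with overlapping groups, and the metallothionein genes Mt1 (-0.64 ± 0.09) and Mt2 (-0.73 ± 0.10) fell. Fkbp5, a common marker of this response, did not pass (0.12 ± 0.07).

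Astrocyte genes showed the most uniform change of any list. Of 14 astrocyte markers 13 fell and none rose, with a median of -0.68, and the count was also 13 with DESeq2, without the sex term, with a replicate block, with the choroid plexus level as a covariate and with each library left out. Slc1a2, the main astrocyte glutamate transporter (chr2:102658659-102790784), was at 2138, 1994, 1987 and 2065 CPM in WT and 1013, 941, 997 and 879 CPM in 175Q, 2.13-fold lower (-1.09 ± 0.06, adjusted p = 7e-08). Gfap, the astrocyte intermediate filament, was at 584, 502, 621 and 600 CPM in WT and 302, 351, 393 and 278 CPM in 175Q (-0.79 ± 0.09, adjusted p = 3e-05). Neither gene's groups overlapped.

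Agt, angiotensinogen, which hindbrain astrocytes make strongly, fell by 1.07 ± 0.09 on the log2 scale. Falls were also seen in the amino acid transporter gene Slc7a10 (-0.85 ± 0.05), the connexin genes Gja1 (-0.76 ± 0.05) and Gjb6 (-0.73 ± 0.05), the GABA transporter gene Slc6a11 (-0.75 ± 0.07), the water channel gene Aqp4 (-0.61 ± 0.06), Slc4a4 (-0.55 ± 0.05), Fgfr3 (-0.52 ± 0.05), Aldoc (-0.49 ± 0.06) and Aldh1l1 (-0.37 ± 0.05). Slc1a3, the second astrocyte glutamate transporter, was the member that did not pass, at 211 to 244 CPM in WT and 208 to 230 CPM in 175Q (-0.09 ± 0.05). Glul, glutamine synthetase (-0.72 ± 0.06), and Sparcl1 (-0.46 ± 0.05), both abundant astrocyte genes outside the list, fell too.

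The summed astrocyte level was 9516 to 9881 CPM in WT and 5655 to 6235 CPM in 175Q. In cortex, hippocampus and striatum of the same mice, 11, 13 and 10 of the 14 fell (medians -0.81, -0.54 and -0.55), and 1 rose in striatum. Of all genes, 16.2, 20.4 and 22.6% fell there. The cortex counts and median include the library labelled WT cortex replicate 1 and were not computed without it. Against the mean of cortex, hippocampus and striatum, the effect in the medulla was higher for 1 of the 14 and lower for 1. Without the library labelled WT cortex replicate 1 these were 2 and 3. In cerebellum 2 of the 14 fell (median -0.25; 2.12% of all genes). By the test of the difference, the effect was lower in the medulla than in cerebellum for 1 of the 14 (0.392% of all genes). That count was 0 without the mouse block and 4 with DESeq2. In the 10-week brainstem 9 of the 14 fell, with a median of -0.31, and for 6 of the 14 the effect was lower in the 26-week medulla, a count of 5 to 8 with each library left out. Slc1a2 stood at -0.56 ± 0.05 there and differed by -0.54 ± 0.08 (adjusted p = 0.0015). Outside the list, Itih3 and Plcxd2 had 2 of the smallest adjusted p-values for a lower effect in the medulla. Itih3, an inter-alpha-trypsin inhibitor heavy chain, was at 164, 173, 166 and 154.5 CPM in WT and 69.5, 67.2, 67.9 and 60.96 CPM in 175Q medulla (-1.30 ± 0.05, adjusted p = 3.4e-09; difference -0.74 ± 0.08). Plcxd2, a phospholipase C-like gene, was at 229 to 252 and 142 to 148 CPM (-0.70 ± 0.04; difference -0.59 ± 0.06).

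Genes of reactive astrocytes did not rise together. Of 14, 1 rose, Serpina3n (0.17 ± 0.05; call lost in 9 of 16 settings), and 6 fell (median -0.37), among them Aspg (-1.15 ± 0.18), Gbp2 (-0.51 ± 0.10) and the chemokine gene Cxcl10, at 0.432 to 1.13 CPM in WT and 0.0953 to 0.344 CPM in 175Q (-1.67 ± 0.39).

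**Figure D4:**
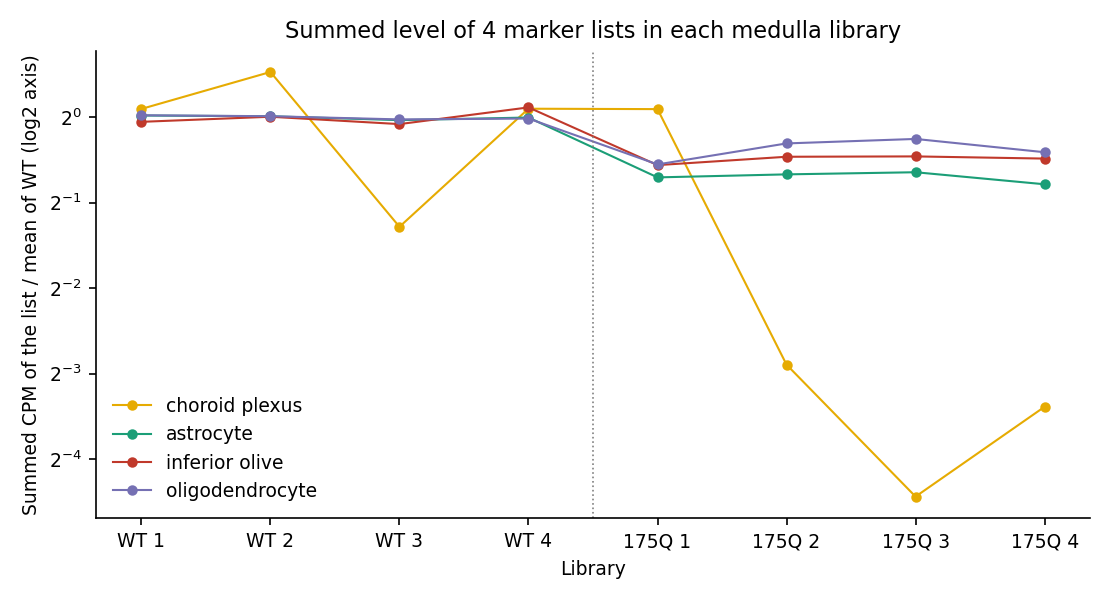
Summed CPM of the choroid plexus, astrocyte, inferior olive and oligodendrocyte lists in each medulla library, divided by the mean of the 4 WT libraries, on a log2 axis. Astrocyte, olive and oligodendrocyte sums are lower in all 4 175Q libraries, while the choroid plexus sum of 175Q replicate 1 (3007 CPM) equals that of WT replicates 1 and 4 (3012 and 3017 CPM).

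Myelin genes were lower by smaller amounts. Of 12 oligodendrocyte markers 7 fell and none rose (median -0.27). Mobp, the gene of myelin-associated oligodendrocyte basic protein, was at 2665, 2398, 2279 and 2255 CPM in WT and 1587, 1805, 1736 and 1578 CPM in 175Q (-0.51 ± 0.07, adjusted p = 0.00014). Its groups did not overlap. Ugt8a, which makes the myelin lipid galactosylceramide (-0.81 ± 0.07), Cldn11 (-0.42 ± 0.05), Ermn (-0.36 ± 0.06) and Mbp (-0.21 ± 0.07; call lost in 8 of 16 settings) fell as well. Oligodendrocyte precursor markers fell in 4 of 12 cases (median -0.17), led by Gpr17, a receptor of the committed precursor, at 33.9 to 38.96 CPM in WT and 10.3 to 19.7 CPM in 175Q (-1.22 ± 0.14), and by C1ql1, which precursors also express. Lgi4, a myelination ligand, fell by 1.17 ± 0.08 on the log2 scale. Schwann cell markers had 1 rise and 2 falls among 8 (median -0.26), where 8.3% of all genes rose and 10.2% fell. Cholesterol synthesis genes, on which myelin depends, fell in 6 of 16 cases (median -0.13), Hmgcs1 by 0.18 ± 0.05 on the log2 scale.

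Microglia markers fell in 4 of 12 cases and rose in none (median -0.19). Among 15 genes of activated microglia and complement 6 fell and 1 rose (median -0.44): Lpl, lipoprotein lipase (-1.46 ± 0.12), complement C3 (-1.11 ± 0.19), Spp1 (-0.56 ± 0.05), Apoe (-0.49 ± 0.06), C4b (-0.48 ± 0.10) and Axl (-0.27 ± 0.05) against H2-D1 (0.19 ± 0.06). Lpl was at 12.99 to 14.5 CPM in WT and 3.53 to 6.10 CPM in 175Q, and its effect differed from that in the 10-week brainstem (-1.21 ± 0.16, adjusted p = 0.00079). Of 16 type I interferon response genes 1 rose and none fell in the medulla (median 0.08), whereas in the 10-week brainstem 11 rose (1.06% of genes rose there), and none of the 16 differed between the sets by the test of the difference. The lymphocyte genes Ighm and Trac had large falls. Ighm, the immunoglobulin M heavy chain, was at 152.7, 64.2, 73.4 and 58.3 CPM in WT and 22.5 to 25.8 CPM in 175Q (-1.79 ± 0.21), and Trac, the T cell receptor alpha constant gene, was at 2.06 to 2.97 and 0.591 to 0.995 CPM (-1.63 ± 0.16). Red cell and lymphocyte genes fell in 2 of 9 cases (median -0.35), in 6 of 9 with the choroid plexus covariate, and in 1 with a replicate block or without WT replicate 1 or 175Q replicate 4.

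Vascular and lining cells were also lower or uneven. Endothelial markers fell in 4 of 12 cases (median -0.17), pericyte and smooth muscle markers in 5 of 10 (median -0.26), which became 3 without WT replicate 1, 175Q replicate 1 or 175Q replicate 4, and meningeal fibroblast markers in 4 of 10 (median -0.50), which became 7 without 175Q replicate 1 and 2 without 175Q replicate 4. Ependymal markers fell in 6 of 9 cases (median -0.72), with Foxj1, the master regulator of motile cilia, at 21.3 to 31.7 CPM in WT and 14.1 to 17.3 CPM in 175Q (-0.68 ± 0.12), and the count was 4 with the choroid plexus covariate, with a replicate block and without WT replicate 1, WT replicate 4, 175Q replicate 1 or 175Q replicate 4. None of 15 choroid plexus markers passed, with a median of -1.58, and 8 fell without 175Q replicate 1. The summed choroid plexus level was 1157 to 4065 CPM in WT and 129.5 to 3007 CPM in 175Q. The part of this tissue in the ependymal and fibroblast changes was not tested. Cerebellar granule and Purkinje cell markers, a check on the cut from the cerebellum, fell in 4 of 14 cases (median -0.57), among them Cbln1 (-0.73 ± 0.09) and Calb1, and Gabra6 did not pass. Without WT replicate 4, the library with the most cerebellar RNA, 4 still fell but the median was -0.04, and with the choroid plexus covariate it was -0.20.

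Among cell-wide programmes, respiratory chain genes had 1 rise in 16 (median 0.06), close to the 8.3% of all genes that rose. Heat shock and unfolded protein response genes had 4 falls in 14 (median -0.12). There was 1 fall without WT replicate 1, without 175Q replicate 4 or with the choroid plexus covariate. Immediate early genes had 1 rise, also close to that share, and 3 falls in 11 (median -0.19), where 10.2% of all genes fell.

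**Figure D5:**
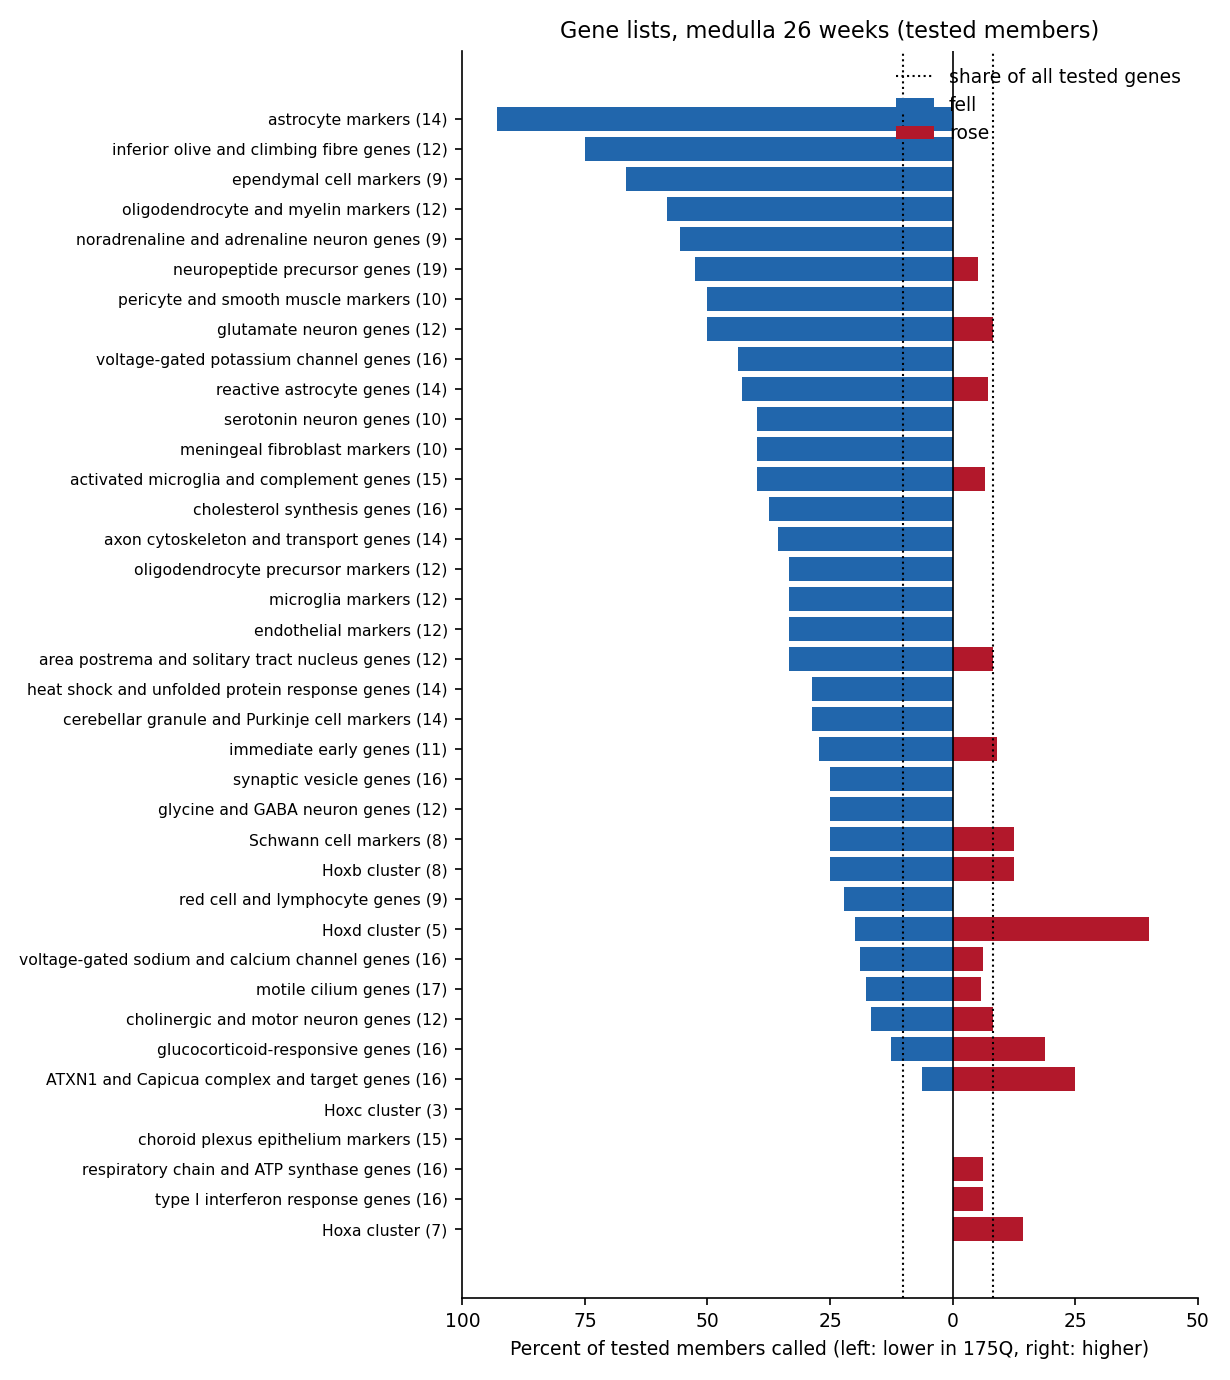
Percent of the tested members of each of 38 gene lists that fell (blue, left) or rose (red, right) in the 175Q medulla, with the number of tested members in brackets and dotted lines at the shares of all genes, 10.2% lower and 8.3% higher. Astrocyte markers lead the falls with 13 of 14, and no list has more than 4 rises.

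Large falls outside these lists included Ano2, a calcium-activated chloride channel gene, at 7.87 to 11.3 CPM in WT and 1.69 to 3.15 CPM in 175Q (-2.01 ± 0.21), Prok1, prokineticin 1 (-1.69 ± 0.16), the matrix gene Smoc2 (-1.68 ± 0.20), Robo3, a receptor of commissural axon guidance (-1.67 ± 0.23), Npy4r, a pancreatic polypeptide receptor (-1.65 ± 0.23), and Tnfrsf25 (-1.73 ± 0.29). None of these had overlapping groups, which was a condition for naming them.

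The 465 genes called in both the medulla and the 10-week brainstem were 12.7% of the medulla calls and 75.7% of the brainstem calls, and 464 of them moved in the same direction. Over 21650 genes the effect differed between the 2 sets for 251 (1.16%), of which 56 were higher (0.259%) and 195 lower in the medulla. The count was 110 without WT medulla replicate 2, 127 and 104 without 175Q medulla replicates 1 and 4, 118 and 149 without WT brainstem replicates 2 and 3, and 150, 123, 102 and 133 without 175Q brainstem replicates 1 to 4. Besides Spag6, the differences towards higher values were small: Gnl3, a nucleolar GTPase, by 0.36 ± 0.06, Tcta by 0.31 ± 0.05, the exocyst gene Exoc1 by 0.30 ± 0.05 and Ipo9, an importin, by 0.28 ± 0.05. Towards lower values Lgi4 differed by -0.76 ± 0.10 and Slc7a10 by -0.45 ± 0.06.

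Against the cerebellum of the same mice, where 3.01% of genes changed (0.882% higher, 2.12% lower), the effect differed for 206 of 22458 genes (0.917%), 118 higher (0.525%) and 88 lower (0.392%) in the medulla. The count was 347 without WT mouse 1, with 148 higher and 199 lower, 125 without WT mouse 2 and 130 without WT mouse 3. Myo15, an unconventional myosin, did not pass in the medulla (0.12 ± 0.17) and stood at -4.44 in the cerebellum (difference 4.49 ± 0.44, adjusted p = 1.7e-08). The effect was also higher in the medulla for Kctd12, an auxiliary subunit of GABA-B receptors (difference 1.13), for Plcb3, a phospholipase C (0.94), for Ppp1r16b (0.96) and for Dym (0.52). In the other direction Fam163b stood at -0.34 in the medulla and 2.28 in the cerebellum (difference -2.56), Synpr, synaptoporin, at -0.33 and 1.35 (difference -1.66), and Hrk, a pro-apoptotic BH3 gene, at -0.52 and 1.81 (difference -2.29). Mgat5b differed by -1.36 and Zfp92 by -2.32.

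Against the mean of cortex, hippocampus and striatum, 2093 genes differed (9.32%), 1338 higher and 755 lower in the medulla. Among the higher were Hapln1, a link protein of perineuronal nets (difference 1.43 ± 0.12; medulla 0.07 ± 0.05), the calcium-calmodulin kinase genes Camkk1 (1.05) and Camk1g (0.99) and the growth factor gene Hbegf (1.29). Tal1, a transcription factor of midbrain and hindbrain inhibitory neurons, stood at 4.17 in cortex, 3.53 in hippocampus, 2.23 in striatum and -0.09 ± 0.14 in the medulla (difference -3.37 ± 0.37), and En2 followed it (-2.70). Both were low in the WT forebrain, where Tal1 averaged 2.654, 2.544 and 2.106 CPM and En2 1.207, 1.109 and 1.429 CPM in cortex, hippocampus and striatum. Pou4f1, which fell with the olive genes in the medulla, stood at 4.36 in hippocampus and 6.55 in striatum (difference -6.94 ± 0.79). It averaged 0.3037 and 0.1222 CPM in WT hippocampus and striatum, and 14.1 CPM in the library labelled WT cortex replicate 1 against at most 0.05758 CPM in the other WT cortex libraries, so the size of its difference rests on WT levels near 0. Etnppl, an astrocyte phospholyase, stood at -0.94 ± 0.07 in the medulla and 1.02 in striatum (difference -1.75), and Pnck, a calmodulin kinase, differed by -1.01.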

How the data were processed

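RNA-seq libraries of whole medulla from 8 mice were compared, 4 WT and 4 175Q, each a separate mouse by the labels. The deposited tables hold raw counts per gene for 5 regions at each of 2 ages. Per the submitters' processing notes, reads were trimmed with Trimmomatic 0.33, aligned to GRCm38 with HISAT2 2.1.0 and counted with featureCounts of Subread 1.6.2. For the deposited 10-week counts the header gives the reverse strand setting, properly paired ends and a mapping quality of at least 10; these settings are not given for the 26-week counts in the sources used here, so reads of overlapping or antisense genes may not be separated there.

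Counts as deposited were fitted with edgeR 4.0.16 in R 4.3.3 (TMM scaling, filterByExpr, quasi-likelihood test). All 12 medulla libraries of the 3 genotypes entered the fit, with sex as a covariate, and p-values were adjusted by Benjamini-Hochberg over all genes tested. CPM are counts divided by each library's TMM-adjusted total. The differences from cerebellum and forebrain were interactions of region and genotype over 60 libraries, with the mouse as a block. The difference from the 10-week brainstem was an interaction over 24 libraries with sex within each set. DESeq2 1.42.0 and the other alternatives are described in the closing section. On simulated counts of 19566 genes, the medulla fit called 36% of 1.25-fold, 74% of 1.5-fold, 90% of 2-fold and 96% of 4-fold changes, and 8 of its 156 calls were false.

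Named genes are Atxn1, the 15 largest rises and falls at a mean of at least 1 CPM with no overlap between groups, the 8 largest rises and falls in CPM, up to 6 called members of smallest adjusted p from each of 38 lists, defining markers, and up to 5 genes per direction of each difference between regions or sets. Genes that the text names outside this rule, among them list members that did not pass, were chosen after their values were seen. Of 487 listed symbols, 485 were matched. The members and lists were chosen with earlier results of these data known. Sex-linked markers, unnamed gene models and a few other genes are not reported here. Promoter sequences are from RefSeq (GRCm38.p6).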

Additional observations from a re-analysis of the deposited data

Results flagged for a closer look

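In groups of 4 libraries, 1 library stood far apart from the other 3 in 20 of 336 groups examined, and chance alone gives about 1 group in 20. Ttr (2601 CPM) and the summed choroid plexus markers (3007 CPM) were highest in 175Q replicate 1, where the other 175Q libraries had at most 275.9 and 377.9 CPM. The same library was lowest in Mt1 (54.8 CPM) and highest in Dym (48.8 CPM) and Spred1 (146.8 CPM). In 175Q replicate 2, Tmc3 (10.1 CPM) was highest and Hoxa9 (0.0238 CPM) lowest. In 175Q replicate 3, Ppp1r16b (147.6 CPM) and Tac2 (3.74 CPM) were highest, and Prok1 (1.84 CPM) and Snhg11 (2969 CPM) lowest.

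Among WT libraries, replicate 4 was highest in Gabra6 (17.2 CPM) and Kctd12 (75.3 CPM) and lowest in Serpina3n (53.4 CPM). Replicate 2 was highest in Mbp (9046 CPM) and Scn4b (563.1 CPM) and lowest in Gal (7.70 CPM). Replicate 1 was highest in Ighm (152.7 CPM) and Plcxd2 (252.1 CPM). Hoxa9 had its single WT read in replicate 3 (0.0198 CPM).

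The effect of genotype differed between sample types by the test of the difference. This held for 206 genes against cerebellum, 2093 against the forebrain mean and 251 against the 10-week brainstem. Differences are on the log2 scale, medulla minus the other tissue. Against cerebellum they were 4.49 for Myo15, 1.13 for Kctd12, 0.96 for Ppp1r16b, 0.52 for Dym, 0.94 for Plcb3, -2.56 for Fam163b, -1.66 for Synpr, -1.36 for Mgat5b, -2.32 for Zfp92 and -2.29 for Hrk. Against the forebrain mean they were 1.66 for Etv4, 1.43 for Hapln1, 1.05 for Camkk1, 1.29 for Hbegf, 0.99 for Camk1g, -1.01 for Pnck, -3.37 for Tal1, -2.70 for En2, -1.75 for Etnppl and, from WT forebrain levels near 0, -6.94 for Pou4f1. Against the brainstem they were 1.90 for Spag6, 0.28 for Ipo9, 0.30 for Exoc1, 0.36 for Gnl3, 0.31 for Tcta, 1.32 for Calca, -0.59 for Plcxd2, -0.74 for Itih3, -0.76 for Lgi4, -1.21 for Lpl, -0.45 for Slc7a10, -1.87 for C1ql1, -2.41 for Htr5b, -1.52 for Pou4f1, -1.02 for Crh and -0.54 for Slc1a2. With 1 library left out, 1 to 7 of the olive genes were lower in effect than in the brainstem, so these calls depended on single libraries.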

How the results depend on the processing

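The 3663 genes called between 175Q and WT medulla became 4151 with DESeq2, 3665 with RLE scaling, 4352 without a low-count filter, 3361 without the sex term, 3992 from the 8 WT and 175Q libraries alone and 2833 with the choroid plexus level as a covariate, which shared 2490 genes with the 3663. Requiring a log2 change of 0.5 left 1058. With 1 library left out the count ran from 2323 to 3089. Of 181 named genes, 88 kept their call under every alternative, 93 lost it under at least 1 and none changed direction. Requiring a log2 change of 0.5 was 1 of the 16 alternatives and removes every gene of smaller change by definition. Atxn1 lost its call in that setting alone, and the counts of lost settings given with single genes cover it. The 30 genes named for a difference between regions or sets, 10 for each, kept theirs in every setting tried. They were named for the smallest adjusted p, which favours keeping a call. The brainstem differences of C1ql1, Htr5b, Pou4f1, Crh, Slc1a2 and Calca were not followed in this way. Glycine and GABA genes that fell numbered 3, and 5 with the choroid plexus covariate.

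Replicate numbers did not pair the libraries: same-numbered WT and 175Q libraries had correlated deviations of -0.0825, 0.181, 0.187 and -0.156, and not every library correlated best with its own number. With a replicate block 3103 genes were called in the medulla, and 134 differed from the 10-week brainstem. Without the mouse block (no replicate block) 211 genes differed from cerebellum and 1990 from the forebrain mean.

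Differences from cerebellum numbered 206, and 385 with DESeq2, 366 without libraries of a mitochondrial share above 10% and 374 without the library labelled WT cortex replicate 1, an alternative chosen after seeing the data. They ran from 125 to 347 with 1 mouse left out. The 2093 differences from the forebrain mean became 3532 without libraries of a high mitochondrial share, of which 53.3% were higher in the medulla against 63.9%, and ran from 1401 to 2439 with 1 mouse left out. The 251 differences from the 10-week brainstem became 671 with DESeq2 and 876 without a low-count filter, and ran from 102 to 272 with 1 library left out. The causes were not tested. At this depth and spread, the fit for differences from cerebellum called 20% of simulated 1.5-fold changes among 22230 genes and 72% of 2-fold changes.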
